A study of Mus musculus with 4 samples.

Results

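The dense clusters of distal accessible regions were 822 stretches of the mouse genome in which at least 5 accessible regions lay close together and away from the ends of genes. They were found by merging overlapping accessible intervals of 4 libraries on chromosomes 1 to 19 and X into 120423 regions. A region was kept if at least 2 libraries had an interval in it, which left 89556, and if it lay more than 2500 bp from both ends of every protein-coding gene, which left 67456 distal regions. Distal neighbours with a gap of at most 5000 bp were joined, and groups of 5 or more regions were taken as clusters. The clusters held 4748 of the 67456 distal regions, or 7.04%. The calls themselves chose the members, so their number and spacing are a description and carry no test.

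The assay was Omni-ATAC-seq, which marks open DNA by the adapters that a transposase can insert there, on bone marrow-derived cells of C57BL/6J mice grown in culture. Wild-type (WT) cells and cells of mice lacking the chemokine receptor gene Cxcr3 (Cxcr3-/-) gave 1 library each of monocytes and 1 each of a progenitor culture labelled CMP/GMP, for common myeloid progenitors and granulocyte-monocyte progenitors. All 4 samples carry the label hepatocellular carcinoma. The design text describes liver tumours induced with diethylnitrosamine and tetrachloromethane in the mice but states that the cells for this assay were cultured in vitro, and the culture conditions and the number of animals are not given in the sources used here. With 1 library per group there is no replicate spread, so no p-value is given, and every interval below is an exact 95% interval that covers counting error only. A bulk library cannot tell a more open site in every cell from a larger share of cells with the site open.

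Regulatory DNA away from promoters often works through enhancers, short open stretches bound by transcription factors. In blood cells, genes that define a lineage are frequently flanked by several such elements, and groups of closely spaced elements have been described as locus control regions, stretch enhancers or super-enhancers. In the myeloid line, progenitors that still make granulocytes and monocytes share many open elements with the monocytes they give rise to, while other elements open or close on the way. Accessibility alone does not show that a site is an enhancer or which gene it serves, so the gene names below mark position only: the host gene, or otherwise the nearest protein-coding gene.

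Most members have no sequence in the reference tables used here, but 143 of the 4748 (3.01%) overlapped a RefSeq promoter window of 300 bases, 250 before to 50 after an annotated start. There were 160 such windows, 75 of them at starts of protein-coding genes. Those printed put letters to some members, of which some had an interval in all 4 libraries and some did not. Each window below is from RefSeq on GRCm38.p6 (mm10), written 5′ to 3′ on the strand of its transcript in lower case, with motif matches in capitals. Both strands were searched for the AP-1 motif, written TGANTCA, for the RUNX motif, written TGTGGTT, and for the C/EBP motif, written TTGCNNAA. The GATA motif was AGATAA, the MAF motif was TGCTGAC, the PU.1 motif was GAGGAAGT, and a motif of interferon regulatory factors (IRF) was searched as well. The windows of Sptbn1, Pacsin2 and Junos belong to clusters picked by the naming rule, and those of Cyth1 and Ncoa4 were added after their values had been seen. Clusters picked by that rule also hold windows of Rbms1, Cd36 and the non-coding RNAs Gm32673, Gm51701 and Gm41130. These are not printed and held no motif match, so the printed windows are a selection.
Sptbn1, chr11:30198208-30198507, minus strand: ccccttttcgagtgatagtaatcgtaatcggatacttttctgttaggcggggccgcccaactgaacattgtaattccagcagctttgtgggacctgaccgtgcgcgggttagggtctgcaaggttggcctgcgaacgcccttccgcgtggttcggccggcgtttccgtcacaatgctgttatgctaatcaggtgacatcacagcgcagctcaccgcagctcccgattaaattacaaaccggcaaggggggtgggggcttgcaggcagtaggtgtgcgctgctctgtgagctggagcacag
Pacsin2 upstream window, chr15:83447831-83448130, minus strand: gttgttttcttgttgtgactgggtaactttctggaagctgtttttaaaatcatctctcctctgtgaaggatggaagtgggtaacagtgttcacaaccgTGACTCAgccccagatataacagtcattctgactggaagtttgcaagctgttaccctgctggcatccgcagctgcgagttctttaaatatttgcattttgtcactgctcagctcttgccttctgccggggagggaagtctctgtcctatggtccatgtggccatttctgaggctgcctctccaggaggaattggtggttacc
Pacsin2 downstream window, chr15:83432801-83433100, minus strand: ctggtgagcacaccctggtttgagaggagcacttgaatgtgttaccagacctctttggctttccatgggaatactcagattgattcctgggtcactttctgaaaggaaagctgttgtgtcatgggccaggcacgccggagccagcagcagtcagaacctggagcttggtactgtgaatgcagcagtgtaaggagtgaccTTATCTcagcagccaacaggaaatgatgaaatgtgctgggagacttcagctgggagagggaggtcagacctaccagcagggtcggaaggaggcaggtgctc
Junos, a long non-coding RNA near Jun, chr4:95094563-95094862, plus strand: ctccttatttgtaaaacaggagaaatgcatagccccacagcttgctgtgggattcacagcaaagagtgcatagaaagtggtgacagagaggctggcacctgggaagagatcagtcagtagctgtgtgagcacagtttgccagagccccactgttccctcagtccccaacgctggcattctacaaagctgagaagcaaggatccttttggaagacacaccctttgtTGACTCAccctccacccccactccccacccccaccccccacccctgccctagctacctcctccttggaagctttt
Cyth1, chr11:118212682-118212981, minus strand: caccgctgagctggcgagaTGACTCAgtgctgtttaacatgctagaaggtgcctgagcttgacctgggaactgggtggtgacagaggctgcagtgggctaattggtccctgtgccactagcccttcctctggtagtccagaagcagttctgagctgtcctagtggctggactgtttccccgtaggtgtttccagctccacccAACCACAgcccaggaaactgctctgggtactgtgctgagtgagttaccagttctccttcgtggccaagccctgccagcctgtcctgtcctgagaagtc
Ncoa4, chr14:32165539-32165838, plus strand: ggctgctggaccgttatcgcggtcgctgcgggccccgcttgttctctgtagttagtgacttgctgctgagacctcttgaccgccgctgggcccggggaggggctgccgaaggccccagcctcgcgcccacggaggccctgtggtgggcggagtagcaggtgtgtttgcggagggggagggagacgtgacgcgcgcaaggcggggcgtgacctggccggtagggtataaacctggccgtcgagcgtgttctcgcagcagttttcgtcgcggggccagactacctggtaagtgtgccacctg

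Values in these members are summit pileups, the number of sequenced tags stacked at the highest point of a region, before scaling between libraries. Tags of single members in the text below are also unscaled. The member over the internal start of Sptbn1, which encodes a spectrin of the membrane skeleton, had 80 tags in WT and 116 in Cxcr3-/- CMP/GMP, against 42 in WT and 33 in Cxcr3-/- monocytes, and no motif matched in its window. The member over the upstream window of Pacsin2, a membrane-bending adaptor, had no interval in either CMP/GMP library and 24 and 19 tags in WT and Cxcr3-/- monocytes. Its window holds an AP-1 match, the letters bound by Fos and Jun proteins. The downstream Pacsin2 member was open in all 4 libraries, with 23, 27, 20 and 19 tags in the order above, and its window holds a GATA match. These 2 members of a single cluster thus differed in kind: a monocyte-only site beside a shared one.

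The Junos member had 22, 23, 26 and 19 tags in the same order, with an interval in all 4 libraries, and its window holds an AP-1 match. The Cyth1 member, at an internal start of the gene for an exchange factor of Arf GTPases, had 23 and 36 tags in WT and Cxcr3-/- CMP/GMP and 57 in each monocyte library, with an AP-1 and a RUNX match. The Ncoa4 member, at the gene for a receptor that delivers ferritin to lysosomes, had 45 and 80 tags in the CMP/GMP libraries, 13 in WT monocytes and no interval in Cxcr3-/- monocytes, and no motif matched in the window shown. Over all 160 windows that overlapped a member, 17.5% (12.0 to 24.3) held an AP-1 match, beside 7.85% of the 32619 windows in the table. C/EBP matches were in 15.0% (9.85 to 21.5) beside 10.9%, and RUNX matches in 8.13% (4.40 to 13.5) beside 5.29%. GATA matches were in 16 of 160 beside 11.2%, MAF in 4.38% beside 4.71%, PU.1 in 3.13% beside 3.22% and IRF in 5.00% (2.18 to 9.61) beside 3.46%. The intervals of C/EBP, RUNX and IRF hold the share of the whole table. A match is only a match of letters, and these windows are promoters and not a sample of all members. Some of the 160 windows overlap each other and share a match, so the intervals may be too narrow. The 32619 windows were not chosen for being accessible, so the differences cannot be tied to the clusters.

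A typical cluster was small. The 485 clusters of 5 regions made up more than any other size, 187 had 6, 80 had 7, 32 had 8 and 17 had 9. Of the largest, 9 had 10 regions, 5 had 11, 4 had 12 and 3 had 13. Just below the threshold, 1139 groups had exactly 4 regions. The largest joined gap was 4999 bp and the smallest gap next to a cluster that was not joined was 5002 bp. The member nearest a gene end lay 2508 bp from it. Clusters spanned 2160 to 34140 bp with a median of 11160 bp, of which 992 to 4605 bp (median 1766) lay inside accessible regions. Together they spanned 9.64 Mb and held 1.55 Mb of accessible sequence. Single members were no wider than other distal regions, with medians of 286 and 301 bp. A cluster was thus a run of sites of ordinary width. Regions called in 1 library alone or near a gene end were not kept and may lie between them.

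In 464 clusters the stretch overlapped a protein-coding gene, in 316 it lay outside genes within 100 kb of one, and in 42 it lay farther away. By members, 57.1% were inside a gene, beside 54.0% of the other distal regions. Host or nearest genes numbered 699, and 72 of them had more than 1 cluster. The clusters with the most regions were inside Lhfpl2, Ccdc12 and Sla (13 each), inside Etv6, Lcp1 and Plec and near Pdhx (12 each), and inside Pacsin2 and Irak2 and near Rassf3 (11 each). Sla, whose cluster also overlaps the thyroglobulin gene Tg, encodes an adaptor that dampens receptor signalling. Etv6 encodes an ETS repressor needed by blood stem cells, Lcp1 an actin-bundling protein of white blood cells, Plec a cytolinker and Irak2 a kinase in Toll-like receptor signalling.

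Cell identity was checked at the ends of marker genes. All 7 CMP/GMP markers had an interval at a gene end in both CMP/GMP libraries. Mpo and Elane had none in either monocyte library, but the other 5 had one in both. Of 10 monocyte markers, 10 had one in WT monocytes and 9 in Cxcr3-/- monocytes, where Ccr2 was the exception. In each CMP/GMP library 9 of the 10 had one, Ccr2 among them, and C1qa had none. The calls at most markers of either kind thus did not separate the cell types. The lists held 69521 to 98257 intervals, and the median pileup at a summit was 21 tags except in Cxcr3-/- CMP/GMP, where it was 29.

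More members were called in monocytes than in CMP/GMP in both genotypes. A region counted as called if it shared a base with 1 of the 69521 best intervals of a library, the length of the shortest list. By this measure 3042 of the 4748 members (64.1%, 62.7 to 65.4) were called in WT CMP/GMP and 3188 (67.1%, 65.8 to 68.5) in Cxcr3-/- CMP/GMP. In WT monocytes 3576 (75.3%, 74.1 to 76.5) were called, and in Cxcr3-/- monocytes 3661 (77.1%, 75.9 to 78.3). These intervals are across regions of 1 library per group and are no test of cell type. Distal regions outside the clusters differed less, with 66.5% (WT) and 67.3% (Cxcr3-/-) called in CMP/GMP, against 68.9% and 70.2% in monocytes. Members also had higher pileups than other distal regions in every library, with medians of 24 against 19 tags in WT CMP/GMP and 33 against 22 in WT monocytes. In Cxcr3-/- cells the medians were 37 against 28 tags in CMP/GMP and 26 against 20 in monocytes. Membership was judged on the full lists, and the longest of these is that of WT monocytes. With clusters rebuilt on lists of equal length, the surplus of monocyte calls was 13.3 percentage points in WT and 7.88 in Cxcr3-/- cells, against 11.2 and 9.96 here.

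Regions called in 1 cell type alone were counted next. There were 932 monocyte-only members (19.6%), called in both monocyte libraries and in neither CMP/GMP library, where 17.5% of all distal regions had that pattern. The 537 CMP/GMP-only members (11.3%) stood against 14.5% of all distal regions. Members called in all 4 libraries numbered 2022 (42.6%), beside 38.4%. The share of monocyte-only regions was thus a little above the background and that of CMP/GMP-only regions a little below it.

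These shares moved with the number of regions in a group. Among 30183 distal regions with no neighbour within the joining gap, 16.5% were monocyte-only and 16.8% CMP/GMP-only, 0.985 monocyte-only regions for each CMP/GMP-only one. In pairs the shares were 17.7% and 13.5%, and in groups of 3 to 4 they were 18.9% and 11.9%. Clusters of 5 to 6 regions had 20.3% (19.0 to 21.6) and 11.5% (10.5 to 12.6), and larger clusters 17.7% (15.6 to 20.02) and 10.7% (8.97 to 12.5). From lone regions to clusters of 5 to 6 the ratio of the counts went from 0.985 through 1.31 and 1.59 to 1.76, and it was 1.66 in the larger clusters. The CMP/GMP-only share moved more than the monocyte-only share, and the change was gradual, with no step at 5 regions. Lone regions also had lower pileups, with medians of 18 to 25 tags, beside 26 to 40 tags in clusters of 7 or more, and the part of signal strength in these shares was not tested.

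**Figure D1:**
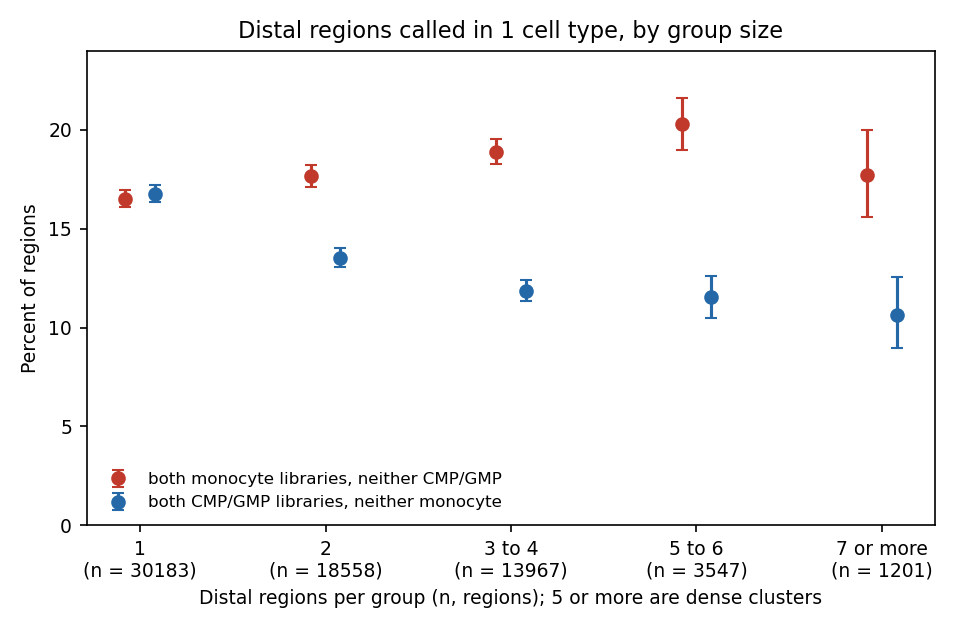
Percent of distal regions called in both libraries of 1 cell type and in neither of the other (vertical axis, with exact 95% counting intervals) by the number of regions in their group (horizontal axis). The 2 shares are nearly equal for lone regions, at 16.5% and 16.8%, and lie apart in clusters of 5 to 6 regions, at 20.3% and 11.5%.

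When clusters were built separately for each cell type, from regions called in both of its equal-length lists, monocytes had 239 clusters with 1344 members and CMP/GMP had 123 with 679. Members made up 3.18% of 42293 distal regions in monocytes and 1.68% of 40437 in CMP/GMP. Of these clusters 50 overlapped between the cell types, 40.7% of the CMP/GMP list and 20.9% of the monocyte list. Of all 67456 distal regions, 25889 were called in all 4 libraries and thus count among both the 40437 and the 42293. The part of the size threshold in the cluster overlap was not tested, so the overlap does not show how specific clusters are to a cell type.

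Seen cluster by cluster, 352 of 822 (42.8%) had more members called in monocytes than in CMP/GMP in both genotypes, and 139 (16.9%) the reverse. In groups of 3 or 4 regions these shares were 32.1% and 17.2%. In 343 clusters (41.7%) there was at least 1 monocyte-only member and no CMP/GMP-only member, beside 36.7% of groups of 3 or 4 regions, and in 152 (18.5%) the reverse, beside 22.0%. Both kinds stood together in 233 clusters (28.3%), beside 10.2%, and neither was present in 94 (11.4%), beside 31.1%. A cluster has more regions in which either kind can occur than a group of 3 or 4, and the part of size in these shares was not tested. The plot of the kinds of member in each cluster shows that most clusters had 0 to 2 of either.

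Fully one-sided were 4 clusters, which were singled out after their values had been seen. No member was called in CMP/GMP in 2 (0.243%), beside 3.55% of groups of 3 or 4 regions, and none in monocytes in the other 2, beside 1.38%. None of the 5 members of the second Pik3r5 cluster (chr11:68467582-68475930) was called in either CMP/GMP library. Pik3r5 encodes a regulatory subunit of the PI3K that acts below chemokine receptors. Its strongest member had 80 tags in WT monocytes and 55 in Cxcr3-/- monocytes, and the other 4 had 18 to 34 and 14 to 23. The Cerk cluster (chr15:86168322-86170481), in the gene for ceramide kinase, packs 5 members into 2160 bp, the shortest span of all. Its strongest member had 72 and 74 tags in WT and Cxcr3-/- monocytes and no interval in CMP/GMP. On the other side, no member of the cluster in Csmd1 (chr8:17401804-17414152) was called in a monocyte library. Its strongest member had 40 and 67 tags in WT and Cxcr3-/- CMP/GMP, 7 in WT monocytes and no interval in Cxcr3-/- monocytes. The cluster at chr12:12539365-12547820, with no protein-coding gene within 100 kb, had members of 13 to 21 tags in WT CMP/GMP and 16 to 38 in Cxcr3-/- CMP/GMP and no interval in monocytes.

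At the other end, all members of 6 clusters (0.730%) were called in all 4 libraries, beside 5.54% of groups of 3 or 4 regions. These lay in or near Mapkapk2, a kinase below p38, Aim2, a sensor of cytosolic DNA, Fpr1, a receptor for bacterial formyl peptides, Ptger3, a prostaglandin E receptor, Stxbp5 and Lrrk1. Shared calls did not mean equal levels. The third member of the Fpr1 cluster had 21 and 29 tags in WT and Cxcr3-/- CMP/GMP, against 60 and 71 in WT and Cxcr3-/- monocytes. Its neighbour, the second member, had 75, 102, 86 and 67 tags in the same order, so adjacent shared members did not follow each other in level.

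The Ccdc12 cluster had the most monocyte-only members (5 of 13). Of the clusters with 4, the longest were those of Lhfpl2 (4 of 13), Jun (4 of 10), Dock10 (4 of 6) and Rbms1 (4 of 9). In the Dock10 cluster, inside the gene for an exchange factor of small GTPases, the fifth member had 69 and 57 tags in WT and Cxcr3-/- monocytes and no interval in CMP/GMP. The Lhfpl2 cluster, at 34140 bp the longest, has its strongest monocyte signal in a monocyte-only member, with 132 tags in WT and 78 in Cxcr3-/- monocytes. Its 5 members called in all 4 libraries had no common tilt, and the log2 ratio of the cluster's scaled pileup, monocytes over CMP/GMP, was 0.01 (-0.31 to 0.34) in WT cells and -0.11 (-0.40 to 0.17) in Cxcr3-/- cells. The monocyte-only members of this cluster were thus not accompanied by a higher level in its shared ones. For the Ccdc12 cluster the ratio was 0.36 (0.15 to 0.58) in WT cells and -0.13 (-0.32 to 0.05) in Cxcr3-/- cells.

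The cluster near Jun, which encodes an AP-1 subunit, also held both monocyte-only and shared members. It lies 29391 bp from the gene (chr4:95081613-95106587), and its strongest member was shared, with 131 tags in WT and 199 in Cxcr3-/- CMP/GMP, against 131 in WT and 106 in Cxcr3-/- monocytes. Of its 10 members 3 were called in all 4 libraries and 4 were monocyte-only, the strongest of these with 43 tags in WT and 38 in Cxcr3-/- monocytes. That member had no interval in WT CMP/GMP and a weak one of 15 tags in Cxcr3-/- CMP/GMP. After scaling, the log2 ratio of the Jun cluster was -0.40 (-0.70 to -0.10) in WT, toward CMP/GMP. In Cxcr3-/- cells it was 0.02 (-0.25 to 0.29).

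The 5 clusters with 4 CMP/GMP-only members each were in Ctif, Dab1, Capza2 and Csmd1 and near Serpinb1a. Serpinb1a encodes an inhibitor of neutrophil elastase and related granule proteases, and its cluster lies 3427 bp from the gene (chr13:32828047-32838665). The strongest member there was shared, with 58 tags in WT and 113 in Cxcr3-/- CMP/GMP, against 53 in WT and 41 in Cxcr3-/- monocytes. The fifth member had 36 and 47 tags in WT and Cxcr3-/- CMP/GMP and no interval in either monocyte library. All 6 members were called in both CMP/GMP libraries, and 2 in WT and 1 in Cxcr3-/- monocytes. In the Dab1 cluster, all 5 members were called in both CMP/GMP libraries and 1 in each monocyte library, at modest pileups of 11 to 34 tags in CMP/GMP.

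For members open in both cell types, levels were compared through the summit pileup. Pileups were scaled to the median of the 44591 regions called in all 4 libraries, and a cluster's ratio is the log2 of its summed scaled pileup in monocytes over that in CMP/GMP, taken over the members with an interval in both libraries, at least 3 of them. The median ratio was 0.06 in WT (SD over clusters 0.52, 536 clusters) and 0.06 in Cxcr3-/- cells (SD 0.49, 591 clusters). Clusters thus spread widely around an even level. Of 474 clusters measured in both genotypes, 45 (9.49%) were past 1.5-fold toward monocytes in both, beside 9.28% of groups of 3 or 4 distal regions. Toward CMP/GMP there were 17 (3.59%), beside 9.44%. The share toward monocytes was near that of the smaller groups and the share toward CMP/GMP below it. Smaller groups sum fewer members, and their ratios spread more, with SDs of 0.61 in WT and 0.59 in Cxcr3-/- cells. Of the 4276 such groups only 625 were measured in both genotypes. The part of group size in these shares was not tested.

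The balance of the 2 directions rests on the scaling. Scaling by the background tags of each library moved the median over all regions with at least 30 tags from 0.03 to 1.26 in WT and from -0.10 to 0.52 in Cxcr3-/- cells, and then 266 clusters lay toward monocytes and 1 toward CMP/GMP. Scaling by the median of ratios, added after the data had been seen, gave 58 and 8. Ratios are therefore best read against other regions. The WT and Cxcr3-/- ratios had the same sign in 361 of the 474 clusters, and Pearson's r across them was 0.75, where the points share their libraries and scaling factors. The 348 clusters without a ratio in both genotypes are not covered by these counts.

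**Figure D2:**
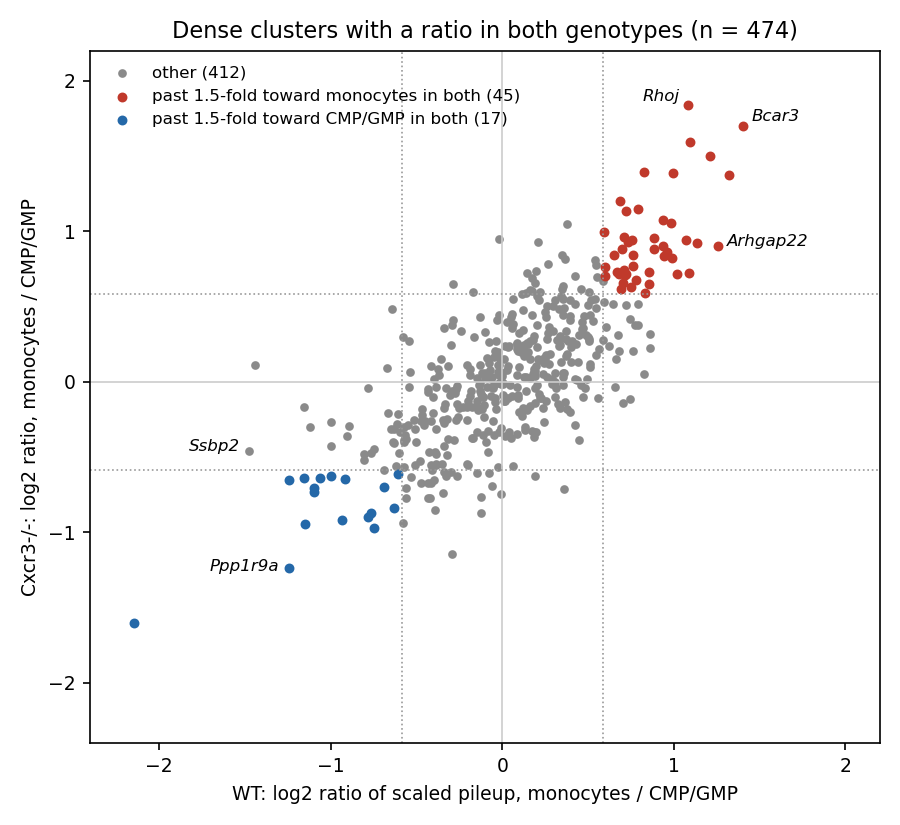
Log2 ratio of scaled summit pileup, monocytes over CMP/GMP, of each of 474 dense clusters in WT (horizontal axis) and Cxcr3-/- cells (vertical axis), with dotted lines at 1.5-fold. The 45 clusters past 1.5-fold toward monocytes in both (red) include Bcar3 at 1.40 and 1.70, and the 17 toward CMP/GMP (blue) include Ppp1r9a at -1.24 in both.

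The 8 clusters with the largest ratios toward monocytes were in or near Bcar3, Rhoj, Hpf1, Rnf150, Capn2, Medag, Kcna2 and Arhgap22. The Bcar3 cluster lies 40368 bp from the gene for an adaptor of Cas-family docking proteins (chr3:122372040-122379389). The fourth member had 28 tags in WT and 36 in Cxcr3-/- CMP/GMP, against 106 in WT and 90 in Cxcr3-/- monocytes. Every shared member there was higher in monocytes, and the cluster ratio was 1.40 (0.96 to 1.87) in WT cells and 1.70 (1.36 to 2.05) in Cxcr3-/- cells. Near Rhoj, a gene for a small GTPase, the first member had 10, 15, 58 and 57 tags in the same order, while the fifth, with 24, 31, 42 and 55, differed less. Its ratio was 1.08 (0.62 to 1.57) in WT cells and 1.84 (1.43 to 2.26) in Cxcr3-/- cells.

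Among the others, the first member near Hpf1, a cofactor of PARP1, had 17 and 36 tags in WT and Cxcr3-/- CMP/GMP, against 94 and 91 in WT and Cxcr3-/- monocytes. Both pileups in monocytes stood above both in CMP/GMP. In Capn2, a calpain protease gene, the third member had 20 and 28 tags in CMP/GMP, against 78 and 62 in monocytes, with cluster ratios of 1.09 (0.67 to 1.53) in WT and 1.59 (1.25 to 1.95) in Cxcr3-/- cells. The ratio of the Arhgap22 cluster, in the gene for a GTPase-activating protein, was 1.26 (0.98 to 1.55) over 6 members in WT and 0.90 (0.61 to 1.19) over 4 in Cxcr3-/- cells.

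Toward CMP/GMP, clusters in or near Ppp1r9a, Tbl1xr1, Ssbp2, Samsn1, Sptbn1, Alg14 and Rbpms were among the 8 with the largest ratios. In Ppp1r9a, the gene for the actin-binding protein neurabin, the first member had 48 tags in WT and 98 in Cxcr3-/- CMP/GMP, against 10 in WT and 11 in Cxcr3-/- monocytes, and the third had 21, 47, 26 and 28. The cluster ratio was -1.24 in both genotypes (-1.65 to -0.84 in WT and -1.63 to -0.86 in Cxcr3-/- cells), and the first member differed between the cell types more than the third. In the Ssbp2 cluster, in the gene for a cofactor of LIM-domain complexes, the fifth member had 57, 82, 23 and 36 tags in the same order, and 3 of its 6 members were CMP/GMP-only. Its cluster ratio was -1.48 (-2.01 to -0.96) in WT cells. In Cxcr3-/- cells it was -0.46 (-0.90 to -0.03), short of 1.5-fold. The Sptbn1 cluster, whose sixth member is the internal start printed above, had ratios of -0.93 (-1.30 to -0.57) and -0.92 (-1.28 to -0.57). The second member, with 33, 40, 46 and 25 tags, was close to even after scaling.

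**Figure D3:**
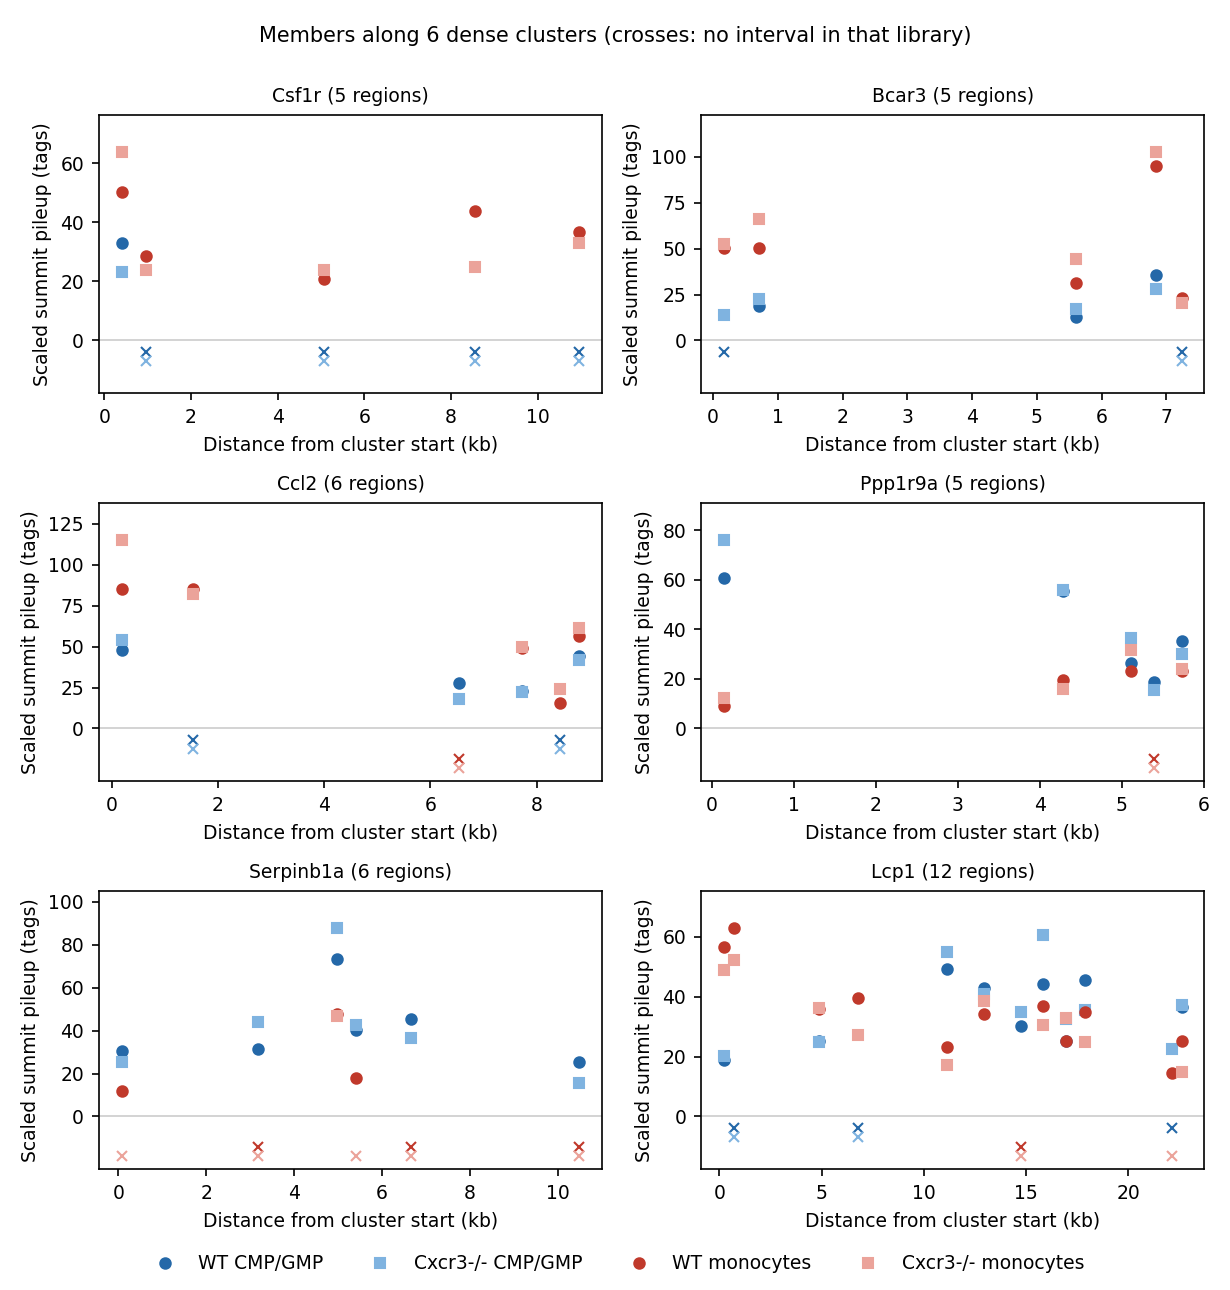
Scaled summit pileup in tags (vertical axis) of each member of 6 dense clusters against its distance from the cluster's start in kb (horizontal axis), with 1 symbol per library and crosses below 0 where a library had no interval. Near Csf1r 4 of 5 members have an interval in the monocyte libraries only, near Bcar3 every member measured in both cell types is higher in monocytes, and in Lcp1 members of opposite tilt lie in 1 cluster.

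Some clusters lay at genes with known roles in these cells. Csf1r encodes the receptor for the growth factor that monocytes and macrophages need, and its cluster lies between Pdgfrb and Csf1r, 3907 bp from the latter (chr18:61090614-61101665). The first member was shared, with 26 and 30 tags in WT and Cxcr3-/- CMP/GMP and 56 in each monocyte library. The other 4 had no interval in CMP/GMP, and had 23 to 49 tags in WT and 21 to 29 in Cxcr3-/- monocytes. The cluster near Cd14, a co-receptor for bacterial lipopolysaccharide, did not share that tilt, with ratios of -0.10 (-0.37 to 0.18) in WT and -0.40 (-0.68 to -0.13) in Cxcr3-/- cells. Of 20 monocyte genes listed, these 2 had a cluster, and of 35 macrophage genes Cd36, Gpnmb and Ctsd had one. Of all 21631 protein-coding genes 699 (3.23%) had one. The cluster near Ctsd, the cathepsin D gene, had ratios of 0.60 (0.27 to 0.93) and 0.76 (0.49 to 1.03).

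Among 25 stem and progenitor factor genes, Ikzf1, Erg, Etv6 and Fli1 had 5 clusters, with 6 monocyte-only and 5 CMP/GMP-only members of 34. Over all members these kinds made up 19.6% and 11.3%, the shares against which this and the next lists' counts stand. The cluster near Ikzf1, a zinc finger factor of lymphoid and early progenitors, was past 1.5-fold toward CMP/GMP in both genotypes, at -0.77 (-1.07 to -0.47) and -0.87 (-1.19 to -0.56). The third member had 62 and 98 tags in WT and Cxcr3-/- CMP/GMP, against 34 and 19 in WT and Cxcr3-/- monocytes. The 12-member cluster of Etv6 was near even, at -0.12 (-0.38 to 0.14) and -0.10 (-0.33 to 0.13), with 3 monocyte-only and no CMP/GMP-only member. In the ETS factor gene Erg the fifth member had 42 and 74 tags in CMP/GMP and no interval in monocytes. The fourth, its direct neighbour, had 39 and 34 tags in WT and Cxcr3-/- monocytes and no interval in CMP/GMP.

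Of 49 myeloid factor genes 12 had 14 clusters, among them Runx2, Jun, Fos, Egr2, Cebpb, Bhlhe40 and Klf6, and 25 of their 82 members were monocyte-only and 10 CMP/GMP-only. None of the 14 was past 1.5-fold in the same direction in both genotypes, among the 8 measured in both. Of 40 signalling and inflammation genes 9 had 10 clusters, with 18 monocyte-only and 5 CMP/GMP-only members of 58, and 2 of the 7 measured in both were past 1.5-fold toward monocytes, those of Ccl2 and Prkcb. The second member near Ccl2, which encodes a chemokine that attracts monocytes, had 95 and 72 tags in WT and Cxcr3-/- monocytes and no interval in CMP/GMP, while the third had 22 and 23 tags in WT and Cxcr3-/- CMP/GMP and none in monocytes. The cluster ratio there was 0.73 (0.37 to 1.10) in WT cells and 0.93 (0.62 to 1.25) in Cxcr3-/- cells.

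The 28 adhesion and cytoskeleton genes had 11 clusters, at Actb, Actn1, Cd9, Dock2, Elmo1, Fn1, Itgb2, Lcp1 and Pxn, with 5 monocyte-only and 10 CMP/GMP-only members of 68. In Lcp1 the second member had 70 and 46 tags in WT and Cxcr3-/- monocytes and no interval in CMP/GMP. The seventh had 24 and 45 tags in WT and Cxcr3-/- CMP/GMP and none in monocytes, in a cluster whose ratio was -0.08 (-0.34 to 0.17) in WT cells and -0.33 (-0.57 to -0.09) in Cxcr3-/- cells. The gene lists of granulocytes, B cells, erythroid cells, megakaryocytes and stem cell receptors had no cluster. They hold 12 to 22 matched genes each, and with 3.23% of all genes having a cluster, a list of that size may hold none, so nothing is read from it. Those of T and NK cells, mast cells, stromal cells and hepatocytes had 1 each, near or in Cd2, Hdc, Pdgfrb and Hnf4a, with 5 members each. Both clusters of the dendritic cell list, at Batf3 and Tcf4, are also among the myeloid factors.

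Neighbouring members were only loosely alike. After a monocyte-only member, the next member of the cluster was monocyte-only in 161 of 789 cases (20.4%), where 19.6% of all members are, and CMP/GMP-only in 9.63%. Neighbours within 5000 bp outside the clusters repeated the pattern in 25.3% of cases, and those 5 to 20 kb apart in 24.2%. After a CMP/GMP-only member the next was CMP/GMP-only in 59 of 432 cases (13.7%) and monocyte-only in 18.3%, beside 21.1% and 11.9% for close neighbours outside the clusters. The base shares differ too: 11.3% of members were CMP/GMP-only and 19.6% monocyte-only, against 14.7% and 17.4% of other distal regions. Across 465 neighbouring pairs with at least 30 tags the WT log2 ratios had r = 0.18 within clusters, beside 0.32 for other close pairs, and in Cxcr3-/- cells r was 0.27 across 667 pairs, beside 0.36. Pairs share libraries and local background, so these values are descriptions.

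The strongest member of a cluster was mostly a shared one. It carried a median of 35.1% of the cluster's scaled pileup summed over the 4 libraries, and 12.3% in the lowest and 71.5% in the highest cluster. Taken in WT monocytes alone, it was called in WT CMP/GMP in 79.2% of clusters (76.2 to 81.9), beside 59.3% for the other members called in WT monocytes. Taken in WT CMP/GMP, it was called in WT monocytes in 89.6% (87.3 to 91.6), beside 69.7%. Strong sites outside the clusters were also shared more often. In the interquartile range of the strongest members' pileups, 48 to 92 tags in WT monocytes, 79.3% of them and 80.0% of distal regions outside clusters were called in WT CMP/GMP, beside 65.1% of such regions at any pileup. In WT CMP/GMP, at 27 to 58 tags, the shares called in WT monocytes were 91.8% and 87.4%, beside 67.4%. By position in the cluster, 42.6% of the outer members and 42.6% of the inner ones were called in all 4 libraries. Median pileups were somewhat higher in inner members, at 24 against 23 tags in WT and 37 against 35 in Cxcr3-/- CMP/GMP. In monocytes they were 34 against 30 in WT and 27 against 25 in Cxcr3-/- cells.

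Single members could be compared where the mean pileup was at least 30 tags. In WT 224 of 1482 were past 2-fold toward monocytes (15.1%), beside 10.8% of all regions, and 86 toward CMP/GMP (5.80%), beside 6.67%. In Cxcr3-/- cells 254 of 1758 (14.4%) were past 2-fold toward monocytes, beside 10.9%, and 148 (8.42%) toward CMP/GMP, beside 9.77%. Other distal regions had 16.1% and 16.3% toward monocytes in WT and Cxcr3-/- cells, so the share of members was not above theirs. Toward CMP/GMP other distal regions had 8.56% and 11.1%, above the members' shares in both genotypes.

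Across clusters, the ratios between genotypes spread less than those between cell types. Each group has 1 library, and the clusters measured differ between the ratios. The median log2 ratio of Cxcr3-/- over WT was 0.03 in CMP/GMP (SD over clusters 0.19, 627 clusters) and -0.02 in monocytes (SD 0.24, 790 clusters), beside SDs of 0.52 and 0.49 for the cell type ratios. The interval left out 0 in 32 of the 627 clusters (5.10%) in CMP/GMP, beside 6.68% of groups of 3 or 4 regions, and in 125 of the 790 (15.8%) in monocytes, beside 13.8%. Both shares were near those of the smaller groups. The share to be met with no difference between genotypes was not tested. Past 1.5-fold in CMP/GMP were 1 cluster higher in Cxcr3-/- cells and 2 lower, beside 0.445% and 1.41% of groups of 3 or 4 regions. In monocytes 9 were higher and 5 lower, beside 2.49% and 1.59%. Past 2-fold, 4 single members were higher and 1 lower of 1655 in CMP/GMP, beside 0.139% and 0.136% of all regions, and 3 and 9 of 2026 in monocytes, beside 0.264% and 0.401%. The sign of the median in monocytes turned under other settings and is not a result.

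**Figure D4:**
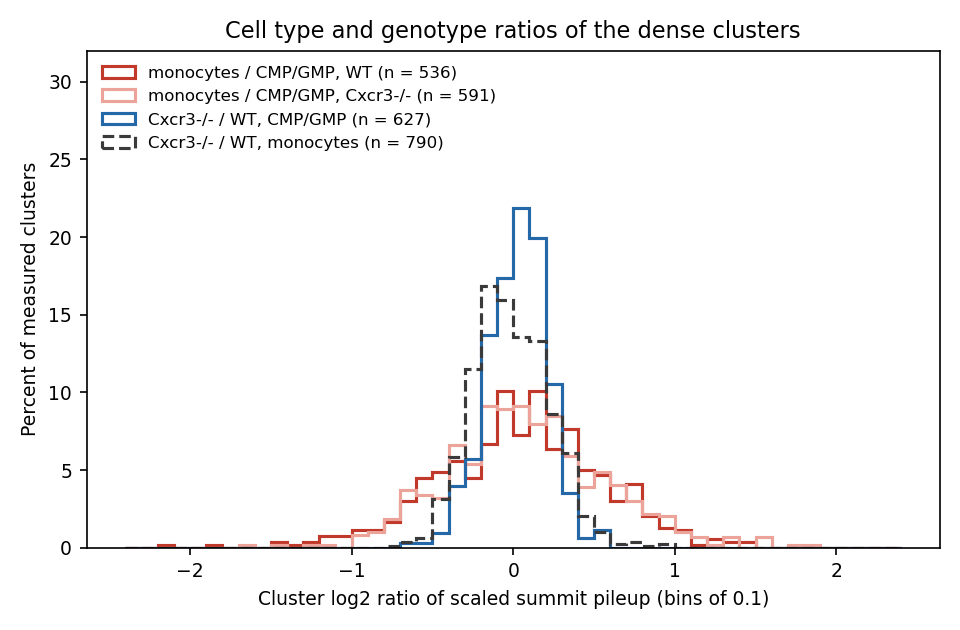
Percent of measured dense clusters (vertical axis) by cluster log2 ratio of scaled summit pileup (horizontal axis, bins of 0.1), for the cell type ratio in each genotype and the genotype ratio in each cell type. The genotype ratios, with SDs of 0.19 and 0.24, form narrower peaks than the cell type ratios, with SDs of 0.52 and 0.49.

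The largest genotype ratios in CMP/GMP were in Mettl4, at -0.68 (-1.23 to -0.13), near Klhl25, at -0.65 (-1.02 to -0.27), and in Syk, at 0.60 (0.21 to 0.99). Syk encodes a kinase of immune receptor signalling. The second member had 23 tags in WT and 63 in Cxcr3-/- CMP/GMP, against 69 in WT and 50 in Cxcr3-/- monocytes, before scaling. Scaling divides tags by 0.791 in WT and 1.29 in Cxcr3-/- CMP/GMP, so unscaled tags overstate a higher level in Cxcr3-/- CMP/GMP. In monocytes they were near Map3k7, at 0.93 (0.10 to 1.77), at chr6:103336697-103345574, at 0.90 (0.48 to 1.33), and in Ssbp2, at 0.86 (0.31 to 1.43). The Map3k7 members had only 6 to 12 tags in the monocyte libraries, and its wide interval shows how little signal stands behind it. Clusters with the same sign of genotype ratio in both cell types were not counted. The cluster near Ccr1, a chemokine receptor gene, was named through a gene list and not for the size of its genotype ratios. It was higher in Cxcr3-/- cells of both kinds, at 0.51 (0.35 to 0.68) in CMP/GMP against 0.33 (0.18 to 0.47) in monocytes. The third member had 117 tags in WT and 307 in Cxcr3-/- CMP/GMP, against 162 in WT and 174 in Cxcr3-/- monocytes. Monocyte genotype ratios also differed with gene density: the median was 0.07 in clusters with 1 to 7 protein-coding genes in the surrounding 1 Mb, -0.02 with 8 to 13 and -0.14 where genes were densest. The part of gene density in single genotype ratios was not tested.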

How the data were processed

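Omni-ATAC-seq calls from 4 mouse libraries, 1 per group as the labels give them, were analysed. Per the submitters' processing notes, Trim Galore, Bowtie2 and SAMtools were used with mm10. The peak caller, its settings and whether duplicate sequencing runs were pooled are not given in the sources used here, for these samples. In the authors' files the fold is a ratio of summit pileup to expected background, the −log10 of p and of q belong to that summit, and the deposited score is the whole part of 10 times the −log10 q, as read from the authors' values. All are each interval's own values. The fold and −log10 p together give a whole pileup, under a Poisson background and 1 added tag, within 0.001. The exceptions were 0 intervals in WT and 3 in Cxcr3-/- CMP/GMP, then 1 in WT and 0 in Cxcr3-/- monocytes. In that order the deposited lists hold 69521, 80171, 98257 and 78244 intervals.

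Membership used the full lists. Calls used the 69521 best intervals by q of each library. A region's pileup is the highest of its intervals, divided by 0.791, 1.29, 1.11 and 0.879 in that order. Shares have Clopper-Pearson intervals and ratios exact intervals from the tag counts. The median pileups, 21 to 29 tags, make the ratio of any 1 region imprecise. The scripts ran in Python 3.11.15 with numpy 2.4.6, pandas 2.3.3 and scipy 1.17.1 and were tested on simulated data. Positions are those of the deposited files, and genes are the 21631 protein-coding genes of RefSeq GRCm38.p6. Of 327 listed symbols, Azu1 had no match. Motifs in all members were not analysed, since no genome was used here.

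Clusters were named by rule: the 10 with the most regions, the 8 with the largest ratio in each direction, the 5 with the most regions of 1 cell type, the 3 largest genotype ratios per cell type, and up to 4 per gene list. Of the 8 toward CMP/GMP, 1 is not reported here. The members, lists and rules were chosen with earlier results of these data known.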

Additional observations from a re-analysis of the deposited data

Results flagged for a closer look

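The dense cluster in Ccdc12 (chr9:110657718-110685948, 13 members) moved in opposite directions with genotype in the 2 cell types, and both counting intervals left out 0. Its log2 ratio of Cxcr3-/- over WT was 0.31 in CMP/GMP, with an interval of 0.11 to 0.52. It was -0.30 in monocytes, with an interval of -0.47 to -0.14. Its strongest member had 110 tags in WT and 244 in Cxcr3-/- CMP/GMP, and 166 in WT and 119 in Cxcr3-/- monocytes, before scaling. The difference between the cell types was not tested, since each ratio comes from 1 library per group. Of 598 clusters with both genotype ratios, 5 had opposite signs with intervals that left out 0, and for the cell type ratio 2 of 474 did.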

How the results depend on the processing

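No paired analysis was possible because each group has 1 library. The surplus of monocyte calls among members kept its direction in both genotypes, and more clusters lay toward monocytes than toward CMP/GMP, under every alternative run. The values below moved, and where an alternative does not itself remove regions or clusters the cause was not tested. All log2 values are medians over clusters, in the order WT cell type ratio, Cxcr3-/- cell type ratio, genotype ratio in CMP/GMP and genotype ratio in monocytes, against 0.057, 0.055, 0.032 and -0.024. A joining gap of 2500 bp gave 142 clusters, surpluses of 14.8 and 12.0 percentage points, 155 monocyte-only and 84 CMP/GMP-only members, 4 and 1 clusters past 1.5-fold, and medians of 0.041, 0.046 and -0.035 for the last 3 ratios. A gap of 10000 bp gave 2581 clusters, 3323 and 1984 such members, 155 and 85 clusters past 1.5-fold, and medians of 0.040, 0.079, 0.019 and 0.021, the last with its sign turned. Members over 10000 bp from gene ends gave 11 clusters toward CMP/GMP, with medians of 0.081 in WT and -0.014 for monocyte genotype. A −log10 q of at least 5 gave 520 clusters, 602 and 322 members, 27 and 5 clusters past 1.5-fold, and medians of 0.029, 0.13, 0.047 and, with its sign turned, 0.020. Requiring intervals to cover 50% of a region gave a WT surplus of 18.2 points, 15 and 7 clusters, and medians of 0.019, 0.11 and, for monocyte genotype with its sign turned, 0.022. The full lists gave a WT surplus of 25.2 points. Background scaling gave 266 and 1 clusters and medians of 1.28, 0.67, 0.13 and -0.54. Members of at least 30 tags gave 20 and 7 clusters, a WT median of 0.19 and genotype medians of 0.090 and -0.037. After the data had been seen 2 alternatives were added. Equal-length lists throughout gave 545 clusters, surpluses of 13.3 and 7.88 points, 27 and 9 clusters past 1.5-fold, a WT median of 0.073 and, with its sign turned, a monocyte genotype median of 0.014. Scaling by the median of ratios gave 8 clusters toward CMP/GMP and medians of 0.17 and 0.18 for the cell type ratios. Leaving out a library was not run, since it would remove a group.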

Other observations

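Dense clusters were unevenly spread over chromosomes. On chromosome 15 members made up 11.4% of the 2898 distal regions, in 55 clusters, and on chromosome 16 they made up 3.40% of 2531, in 15 clusters. On every other chromosome analysed the share lay between 6.18% (chromosome 7) and 7.80% (chromosome 5). Chromosome 15 also carried Asap1, the gene named by the most clusters, with 4, an Arf GTPase-activating protein of focal adhesions. The 13 genes with 3 clusters each included Cdk6, a cell cycle kinase of progenitors, Ptk2b, a focal adhesion-type kinase of white blood cells, Cd9, a tetraspanin, and Wipf1, a partner of the actin regulator WASP.

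A Mir7687 hairpin in Gse1 and a Mir7228 hairpin near Syna overlapped members. These were the only 2 annotated miRNA hairpins that did.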
